A study of Homo sapiens with 6 samples.

Results

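The proteasome genes were taken from the deposited expression matrix by name, as gene identifiers listed once whose symbol starts with PSMA, PSMB, PSMC, PSMD, PSME, PSMF or PSMG, leaving out pseudogenes and a few genes that are not analysed here. The rule used no measured value. It gave 47 genes of the 13021 identifiers analysed. Of these, 43 encode proteasome subunits, activators, an inhibitor or assembly chaperones, and 4 (PSMC3IP, PSME3IP1, PSMD14-DT and PSMG3-AS1) only share the name. RNA sequencing had been run on the established human colorectal cancer cell lines HCT116 (labelled HCT116WT), HT29 and SW480. Each line gave 1 control library and 1 BZW2 knockdown library, so each group held 3 libraries. The control cells carried a non-targeting shRNA and the knockdown cells a single shRNA against BZW2, a regulator of translation initiation. Both kinds of cell were stable lines made with lentiviral vectors and kept under puromycin selection at 1 µg/ml. No label states that separate cultures were sampled, and each knockdown rests on 1 hairpin and 1 library per line, so p-values measure the spread between lines only.

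The proteasome degrades proteins that carry ubiquitin chains. Its barrel-shaped core is built of outer alpha rings, which form the gate, and inner beta rings, which hold the proteolytic sites. A regulatory cap sits on the core: a ring of ATPases unfolds substrates, and non-ATPase subunits bind ubiquitin, remove it and hold the cap together. Dedicated chaperones assemble the alpha ring and the ATPase ring, and other activators can take the place of the cap. The subunits are present in fixed ratios, and their genes are known to be induced together when proteasome activity is inhibited.

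The shallowest library, with 2187373 listed reads, was the HCT116 knockdown, and the deepest, with 9317444, the HT29 control. BZW2 itself stood at 17.6% (95% counting interval 11.7 to 25.6%) of its control in HCT116, 8.69% (7.22 to 10.4%) in HT29 and 13.5% (10.5 to 17.2%) in SW480. HCT116 stood apart: the SD of log2 ratios over all genes was 1.59, against 0.64 in HT29 and 0.69 in SW480, and 129 listed genes had 0 reads in its knockdown library. Across all genes the HCT116 ratio followed transcript GC content (Spearman 0.68 over 11363 genes), as the HT29 ratio did less closely (0.33) and the SW480 ratio hardly (−0.06). With library totals as the only scaling, the median gene of HCT116 lay at −0.33 on the log2 scale. Of 10 colorectal epithelial markers, 5 were analysed here (CDH1, KRT18, EPCAM, CDX2 and KRT8), and all 5 were listed in every line. Their summed level was 3269 to 9560 CPM (read counts scaled to a common library total) in control and 5252 to 9129 in knockdown libraries. The HCT116 sum alone went from 3269 to 9129, and its part in the HCT116 ratios below was not tested. No marker of leukocytes (0 of 5) or endothelium (0 of 3) was listed, and 1 of 5 fibroblast markers, COL1A1, had at most 26 reads. In bulk libraries such as these, fewer cells of a type and less RNA per cell cannot be told apart.

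All 43 proteasome genes had a higher estimate in the knockdown libraries across the 3 lines, and none passed the test after adjustment. The estimates came from limma on log2(deposited value + 1) with the cell line as a block. Their median was 0.83 on the log2 scale, against 0.02 over all 10875 genes tested. A positive estimate was found for 43 of 43 proteasome genes, where 51.1% of all genes had one. Adjusted p-values from limma ran from 0.284 to 0.959. The share of all genes called at an adjusted p under 0.05 was 0%, with 0.155 as the smallest adjusted p of any gene, the value for BZW2 (−2.92 ± 0.40, log2, limma), so at this threshold the fit called no gene, BZW2 included. At an unadjusted p under 0.05, 17 of 43 proteasome genes were higher (39.5%, against 6.59% of all genes) and 0 were lower (against 7.04%). Count models on recovered reads also called 0 of the 43 after adjustment, with 14 higher at an unadjusted p under 0.05 in edgeR (5.05% of all genes in that fit) and 17 in DESeq2 (6.92%). Leaving out HCT116 lowered the median estimate to 0.49, with 42 of 43 estimates positive (51.7% of all genes in that fit) and 17 higher at an unadjusted p under 0.05 (9.67%).

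Direction was shared by most of the genes in every line. In 32 of 43 genes (74.4%) the knockdown library was above its control in all 3 lines, which held for 22.3% of all genes, and 0 of 43 were lower in all 3 (21.1% of all genes). At least 1.5-fold higher in all 3 lines were 9 of 43 genes (20.9%, against 3.65%): PSMA7, PSMB2, PSMB4, PSMB5, PSMB6, PSMC3, PSMD1, PSMD2 and PSMD13. In at least 2 lines this held for 22 genes (51.2%, against 13.9%). The 11 genes below their control in some line were PSMA2, PSMC6, PSMD12, PSMG2, PSME1 and PSME4 in HCT116, PSMA3, PSMB10, PSMC6, PSME1 and PSME2 in HT29, and PSMB1 and PSMF1 in SW480.

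Within single lines there is 1 library per treatment and no test, and the intervals given cover counting error only. In HCT116, 37 of 43 proteasome genes were higher in the knockdown library (49.6% of all genes), with a median ratio of 2.86. In that line 29 genes (67.4%) were at least 1.5-fold higher, where 36% of all genes were, and 2 were at least 1.5-fold lower (37.8%). In HT29, 38 of 43 were higher (51.2% of all genes), with a median ratio of 1.27, and 13 (30.2%) were at least 1.5-fold higher (13.6%). None of the 43 was at least 1.5-fold lower in HT29, where 15.7% of all genes were. In SW480, 41 of 43 were higher (50.4% of all genes), with a median ratio of 1.60, and 26 (60.5%) were at least 1.5-fold higher (15.3%). The 1 gene at least 1.5-fold lower in SW480 was PSMB1, beside 17.5% of all genes. At least 2-fold higher were 26 genes in HCT116 (26.8% of all genes), 0 in HT29 (3.74%) and 7 in SW480 (4.98%). Counting intervals lay wholly above 1 for 33 genes in HCT116 (39.2% of all genes), 33 in HT29 (33.9%) and 40 in SW480 (31.6%). They lay wholly below 1 for 4 genes in HCT116 (39.8%), 1 in HT29 (32.9%) and 1 in SW480 (29.1%).

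As a share of all listed reads, the 43 genes together were higher in each knockdown library. Their share was 0.388% (exact 95% interval 0.383 to 0.393%) in the HCT116 control and 0.929% (0.916 to 0.942%) in its knockdown. In HT29 it was 0.517% (0.512 to 0.522%) and 0.677% (0.671 to 0.682%). In SW480 it was 0.399% (0.393 to 0.404%) and 0.685% (0.678 to 0.691%). All 3 knockdown shares lay above all 3 control shares, and the smallest step was the one in HT29, whose control share was the highest of the controls. Core genes alone held 0.138%, 0.187% and 0.144% in the HCT116, HT29 and SW480 controls and 0.329%, 0.264% and 0.239% in the knockdowns. Cap genes held 0.172%, 0.225% and 0.178% in the controls and 0.506%, 0.294% and 0.333% in the knockdowns.

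**Figure D1:**
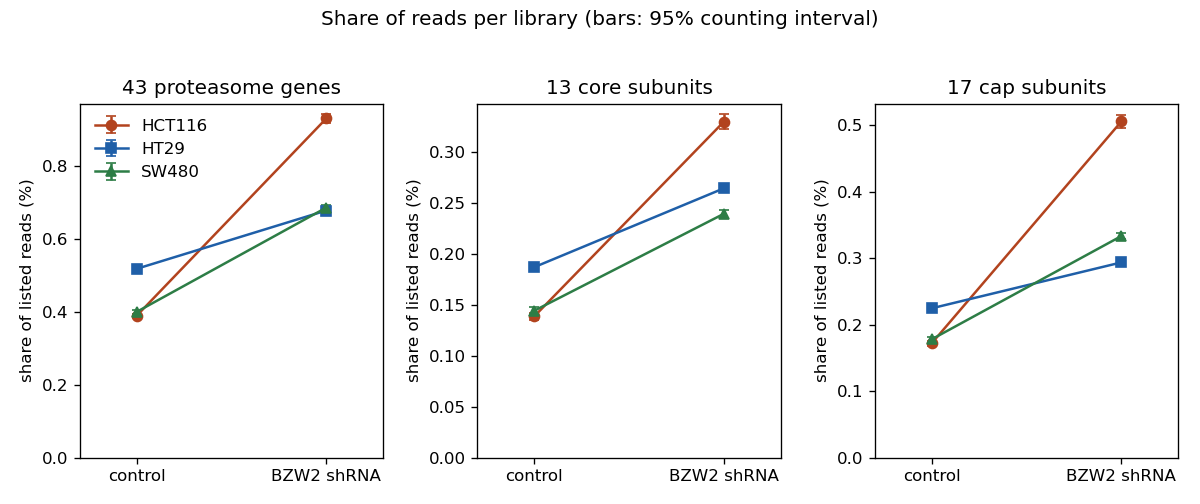
Share of listed reads (%, y axis from 0) held by the 43 proteasome genes, the 13 core subunits and the 17 cap subunits in the control and BZW2 shRNA library of each line; bars are exact 95% counting intervals and are mostly smaller than the symbols. Each line slopes upward, from 0.388 to 0.929% in HCT116, 0.517 to 0.677% in HT29 and 0.399 to 0.685% in SW480 for all 43 genes.

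All 3 proteolytic beta subunits were above their control in every line. Levels are given as CPM after TMM scaling, which weights libraries by their typical gene. Scaling was done within each line, so ratios compare a control with the knockdown of its own line, and values of different lines are only set side by side. PSMB5, the subunit with chymotrypsin-like activity and the main target of bortezomib, is on chromosome 14 (chr14:23016543-23035230, minus strand, GRCh38). It stood at 68.1 CPM in the HCT116 control and 463 in the knockdown, at 70.5 and 122 in HT29, and at 95.3 and 175 in SW480. Every knockdown value lay above every control value. The ratios were 6.81 (95% counting interval 6.06 to 7.66) in HCT116, 1.73 (1.57 to 1.90) in HT29 and 1.84 (1.65 to 2.05) in SW480, with a limma estimate of 1.51 ± 0.46 (log2, SE, n = 3 lines, adjusted p = 0.298).

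PSMB6, the caspase-like subunit (chr17:4796144-4798503, plus strand), had the highest limma estimate of the 43 genes, at 1.54 ± 0.46 (log2, SE, n = 3 lines, adjusted p = 0.291). Its level was 30.3 CPM in the HCT116 control and 199.8 in the knockdown, 59.0 and 91.2 in HT29, and 43.1 and 98.4 in SW480, ratios of 6.59 (5.53 to 7.88), 1.54 (1.38 to 1.72) and 2.28 (1.95 to 2.68). Again no knockdown value reached down to a control value. PSMB7, the trypsin-like subunit, was at 114 and 481 CPM in HCT116, 156 and 214 in HT29 and 121 and 199.9 in SW480. All 3 lines were thus higher in the knockdown, 4.21-fold, 1.37-fold and 1.65-fold, with a limma estimate of 1.12 ± 0.42 (adjusted p = 0.337).

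The other beta subunits of the constitutive core have structural roles. PSMB4 was at 168 CPM in the HCT116 control and 586 in the knockdown, 156 and 272 in HT29, and 177 and 337 in SW480. The 3 controls were close together and all 3 knockdowns lay above them, by 3.48-fold (3.20 to 3.79), 1.74-fold (1.63 to 1.86) and 1.91-fold (1.77 to 2.07), with a limma estimate of 1.21 ± 0.38 (adjusted p = 0.303). PSMB2 was also higher in each line, with ratios of 2.85, 1.70 and 1.69 and a limma estimate of 1.05 ± 0.38 (adjusted p = 0.329).

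PSMB1 was the exception in the beta ring. It was at 179.9 CPM in the HCT116 control and 326 in the knockdown, and at 153 and 209 in HT29, but at 249.7 in the SW480 control and 165 in its knockdown. The SW480 pair thus ran opposite to the other pairs, with a ratio of 0.66 (0.607 to 0.717) against 1.81 (1.64 to 2.0) and 1.36 (1.27 to 1.46). Its limma estimate was 0.27 ± 0.40 (adjusted p = 0.743), and −0.05 without HCT116. PSMB10, the interferon-inducible subunit that replaces PSMB7 in the immunoproteasome, was higher in the HT29 control than in the other controls: 4.44 and 21.5 CPM in HCT116, 36.9 and 32.1 in HT29, and 4.62 and 8.84 in SW480. Its ratio was 4.83 (2.93 to 8.09) in HCT116 and 1.91 (1.16 to 3.26) in SW480, where the control had 23 reads, while the HT29 ratio of 0.869 had an interval that included 1 (0.741 to 1.02).

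**Figure D2:**
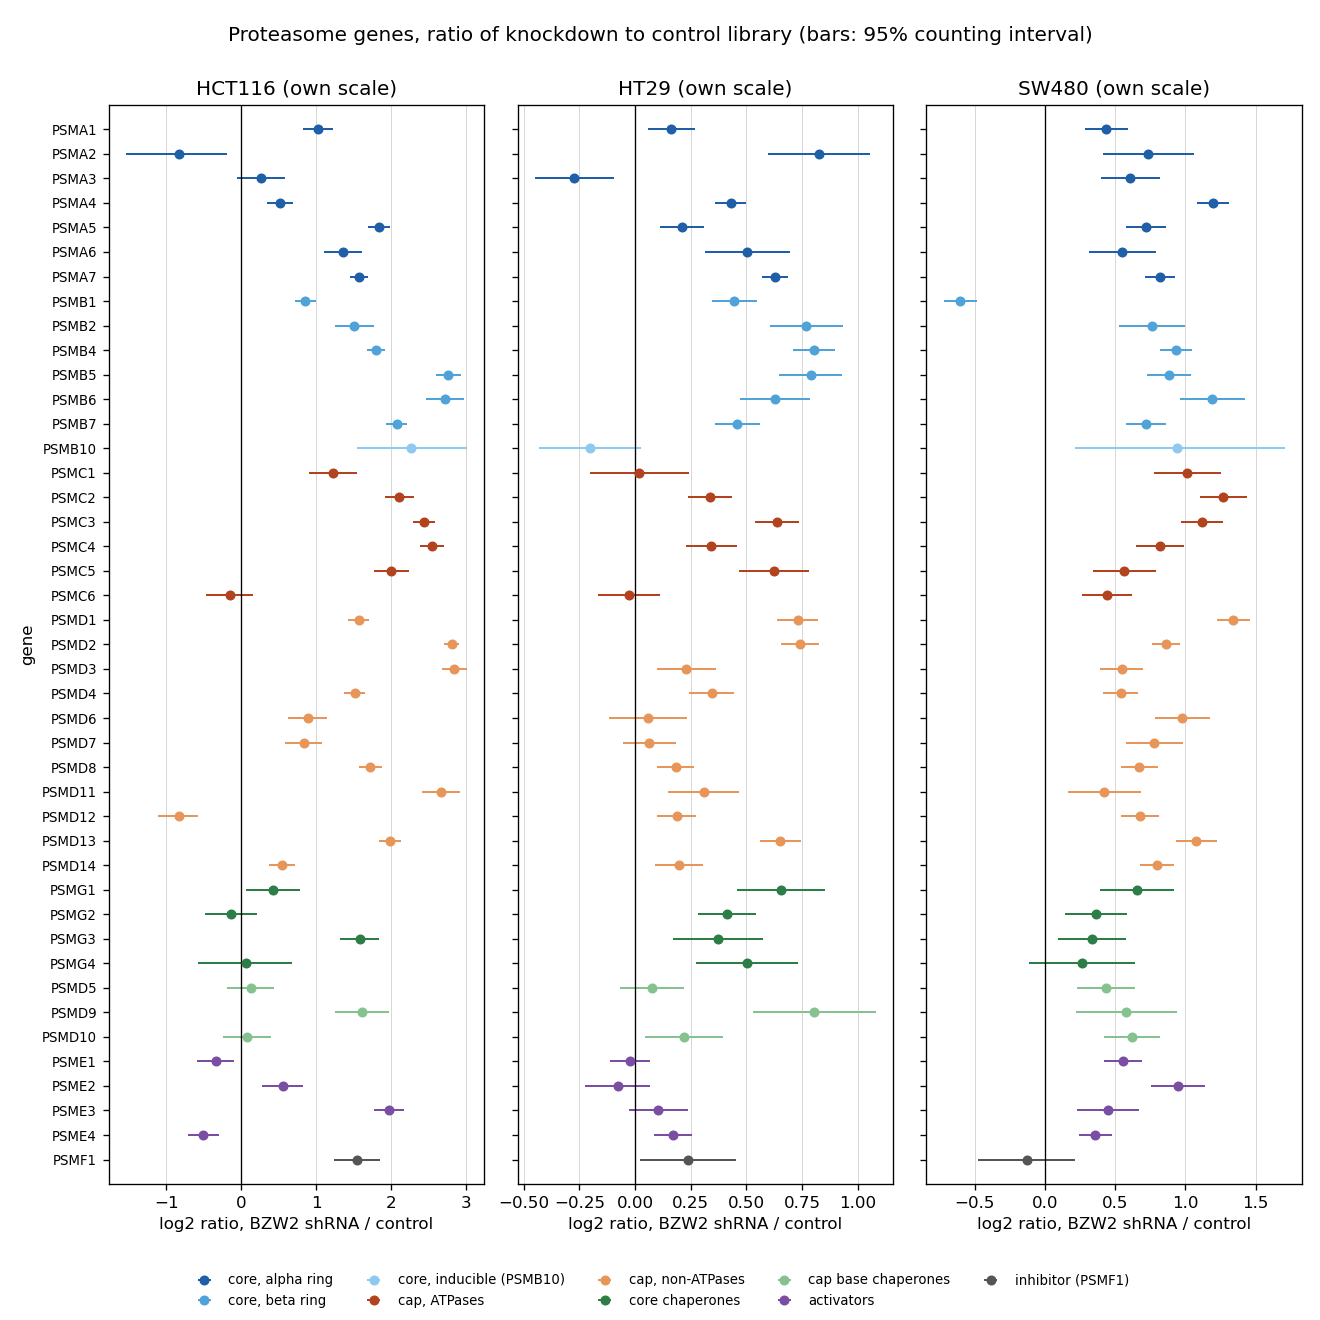
Log2 ratio of BZW2 shRNA to control library for each of the 43 proteasome genes (rows, coloured by role) in HCT116, HT29 and SW480; bars are 95% counting intervals and each panel has its own x scale. Most points lie to the right of 0 in every panel (37, 38 and 41 of 43), with PSMB1 left of 0 in SW480 and PSMA2 and PSMD12 left of 0 in HCT116.

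The 7 alpha subunits form the gated end rings of the core. All 7 had positive estimates (median 0.75), and 5 of 7 were higher in all 3 lines. PSMA7 (chr20:62136735-62143440, minus strand) was at 186 CPM in the HCT116 control and 555 in the knockdown, 434 and 670.4 in HT29, and 207 and 366 in SW480. The knockdown was the higher library of each pair, although the HT29 control lay above the SW480 knockdown. Its ratios were 2.98 (2.74 to 3.24), 1.54 (1.48 to 1.61) and 1.77 (1.64 to 1.90), with a limma estimate of 1.04 ± 0.37 (adjusted p = 0.326). PSMA5 had ratios of 3.59, 1.16 and 1.65 (limma estimate 0.96 ± 0.41, adjusted p = 0.361), and PSMA6 of 2.57, 1.42 and 1.47 (0.84 ± 0.39, adjusted p = 0.376). PSMA4 had the highest SW480 ratio of the alpha ring, 2.29 (2.11 to 2.48), with 1.43 in HCT116 and 1.35 in HT29. PSMA1 stood at 2.03, 1.12 and 1.35.

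The remaining alpha subunits went opposite ways in different lines. PSMA2 was at 20.9 CPM in the HCT116 control and 11.8 in the knockdown, 26.8 and 47.5 in HT29, and 24.1 and 40.0 in SW480. The HCT116 knockdown value rested on 23 reads, which with the SW480 control of PSMB10 was the fewest for the 43 genes in any library, and its ratio of 0.561 (0.344 to 0.878) stood against 1.77 (1.51 to 2.08) in HT29 and 1.66 (1.33 to 2.08) in SW480. After the correction for GC content and length described below, the HCT116 log2 ratio of PSMA2 was 0.43 in place of −0.81. PSMA2 shares exon sequence positions with MRPL32, and since the strandedness of the counts is not given, the reads of the 2 genes cannot be told apart where they overlap. PSMA3 had a ratio of 0.828 (0.732 to 0.936) in HT29, 1.52 (1.32 to 1.76) in SW480 and 1.21 in HCT116, where the interval included 1 (0.959 to 1.51).

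The 6 ATPases of the cap had a median estimate of 1.18 across the lines, and 5 of 6 were higher in all 3. PSMC3 (chr11:47418769-47426473, minus strand) was at 95.5 CPM in the HCT116 control and 519 in the knockdown, 151 and 234 in HT29, and 102 and 222 in SW480. Every knockdown value lay above every control value, with ratios of 5.43 (4.90 to 6.02), 1.55 (1.45 to 1.66) and 2.2 (1.96 to 2.41) and a limma estimate of 1.43 ± 0.43 (adjusted p = 0.289). PSMC2 was at 63.5 and 274 CPM in HCT116, 158 and 199.7 in HT29, and 77.9 and 188 in SW480. Each knockdown exceeded its control, 4.32-fold, 1.26-fold and 2.41-fold, with a limma estimate of 1.27 ± 0.42 (adjusted p = 0.310). PSMC4 had ratios of 5.86, 1.27 and 1.77 (1.27 ± 0.47, limma adjusted p = 0.334), and PSMC5 of 4.02, 1.54 and 1.48 (1.10 ± 0.42, limma adjusted p = 0.340). PSMC1 was 2.35-fold and 2.02-fold higher in HCT116 and SW480, and at 1.01 (0.868 to 1.18) in HT29. PSMC6 had the lowest ratio of the ATPases in each line: 0.902 (0.725 to 1.11), 0.981 (0.890 to 1.08) and 1.36 (1.2 to 1.54).

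Among the 11 non-ATPase subunits of the cap, the large scaffold subunits PSMD1 and PSMD2, which bind substrates and shuttle proteins, were higher in every line. PSMD1 (chr2:231056864-231172827, plus strand) had the smallest p of the 43 genes, with a limma estimate of 1.25 ± 0.36 (log2, SE, n = 3 lines, adjusted p = 0.284). It was at 138 CPM in the HCT116 control and 408 in the knockdown, 166 and 276 in HT29, and 149 and 377 in SW480. The 3 controls lay close together and below all 3 knockdowns, and the ratios were 2.96 (2.69 to 3.27), 1.66 (1.56 to 1.77) and 2.53 (2.33 to 2.76). PSMD2 was at 189 and 1324 CPM in HCT116, 190.1 and 318 in HT29, and 247 and 449.5 in SW480. Its HCT116 knockdown library stood far above the rest, and the 3 ratios were 7.01 (6.55 to 7.52), 1.67 (1.57 to 1.77) and 1.82 (1.70 to 1.94), with a limma estimate of 1.5 ± 0.47 (adjusted p = 0.305).

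The lid, which holds the deubiquitinase PSMD14, was higher in most of its subunits too. PSMD13 had ratios of 3.98 (3.59 to 4.41), 1.57 (1.47 to 1.67) and 2.11 (1.91 to 2.34), with a limma estimate of 1.27 ± 0.39 (adjusted p = 0.30). PSMD3 and PSMD11 had their high ratios in HCT116 (7.18 and 6.38) and smaller ones in HT29 (1.17 and 1.24) and SW480 (1.46 and 1.34). PSMD8 stood at 3.31, 1.13 and 1.59. PSMD6 and PSMD7 were 1.85-fold and 1.79-fold higher in HCT116 and 1.97-fold and 1.72-fold higher in SW480, while in HT29 both were at 1.04 with intervals that included 1. PSMD14 itself had ratios of 1.46, 1.15 and 1.74, and PSMD4, a ubiquitin receptor, of 2.86, 1.27 and 1.45. PSMD12 was the one cap subunit with opposite signs beyond counting error before that correction: it was at 125 CPM in the HCT116 control and 70.0 in the knockdown, 221 and 252 in HT29, and 132 and 212 in SW480. Its HCT116 ratio of 0.561 (0.465 to 0.674) stood against 1.14 (1.07 to 1.21) and 1.60 (1.45 to 1.76). After correction the log2 ratio of PSMD12 in HCT116 was 0.76 in place of −0.83, and all 17 cap genes were higher in that line.

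The 7 assembly chaperones had a median estimate of 0.34 across the lines, and 6 of 7 were higher in all 3 (5 of 7 after correction). PSMD9, which with PSMD5 and PSMD10 helps to build the ATPase ring, was at 21.7 CPM in the HCT116 control and 66.4 in the knockdown, 18.8 and 32.8 in HT29, and 20.3 and 30.2 in SW480. The 3 knockdown values lay above the 3 control values. Its ratios were 3.06 (2.39 to 3.91), 1.74 (1.44 to 2.12) and 1.49 (1.16 to 1.92), with a limma estimate of 1.02 ± 0.42 (adjusted p = 0.351). PSMD5 and PSMD10 were at 1.09 and 1.06 in HCT116, with intervals that included 1, and at 1.35 and 1.54 in SW480. Of the chaperones of the alpha ring, which work as the pairs PSMG1 with PSMG2 and PSMG3 with PSMG4, PSMG1 had ratios of 1.34, 1.57 and 1.57 and PSMG3 of 2.99, 1.29 and 1.26. Their partners had lower HCT116 ratios, 0.914 (0.713 to 1.16) for PSMG2 and 1.05 (0.671 to 1.60) for PSMG4, both with intervals that included 1. PSMG4 stood on 30 reads in that knockdown library. After correction the HCT116 median log2 ratio of the 4 alpha ring chaperones went from 0.24 to 0.0001. That of the 3 chaperones of the ATPase ring went from 0.13 to 1.06.

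The activators that bind the core in place of the cap did not share one direction. PSME1 and PSME2 lie about side by side on chromosome 14 and encode the interferon-inducible activator ring. PSME1 was at 114 CPM in the HCT116 control and 89.9 in the knockdown, 223 and 219 in HT29, and 136 and 199.4 in SW480. The HCT116 ratio was 0.792 (0.668 to 0.935), the interval of the HT29 ratio included 1 (0.983, 0.924 to 1.05), and the SW480 ratio was 1.47 (1.34 to 1.61). PSME2 stood at 1.47 (1.21 to 1.78), 0.948 (0.856 to 1.05) and 1.92 (1.68 to 2.20). PSME3, the nuclear activator, was 3.94-fold higher in HCT116, at 1.08 in HT29 (0.98 to 1.18) and 1.36-fold higher in SW480. PSME4, a large nuclear activator, had ratios of 0.706 (0.609 to 0.814), 1.13 (1.06 to 1.2) and 1.28 (1.18 to 1.39), and its HCT116 log2 ratio turned from −0.50 to 0.71 after correction. PSMF1, an inhibitor of the core in vitro and an adaptor for proteasome transport, had ratios of 2.92, 1.18 and 0.914, the last with an interval that included 1 (0.720 to 1.16).

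The order of the class medians was not the same in each line. In HCT116 the median log2 ratio was 1.5 for the 13 core genes, 1.72 for the 17 cap genes, 0.13 for the 7 chaperones and 0.11 for the 4 activators, beside −0.02 for all genes. In HT29 the same medians were 0.50, 0.31, 0.41 and 0.04, and in SW480 0.72, 0.80, 0.43 and 0.50, beside 0.02 and 0.01 for all genes. Core minus cap came to −0.22, 0.19 and −0.07 in the 3 lines, so the sign differed between lines. Core minus chaperones was 1.38, 0.09 and 0.29. No test was run on these medians, which rest on 1 pair of libraries each.

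**Figure D3:**
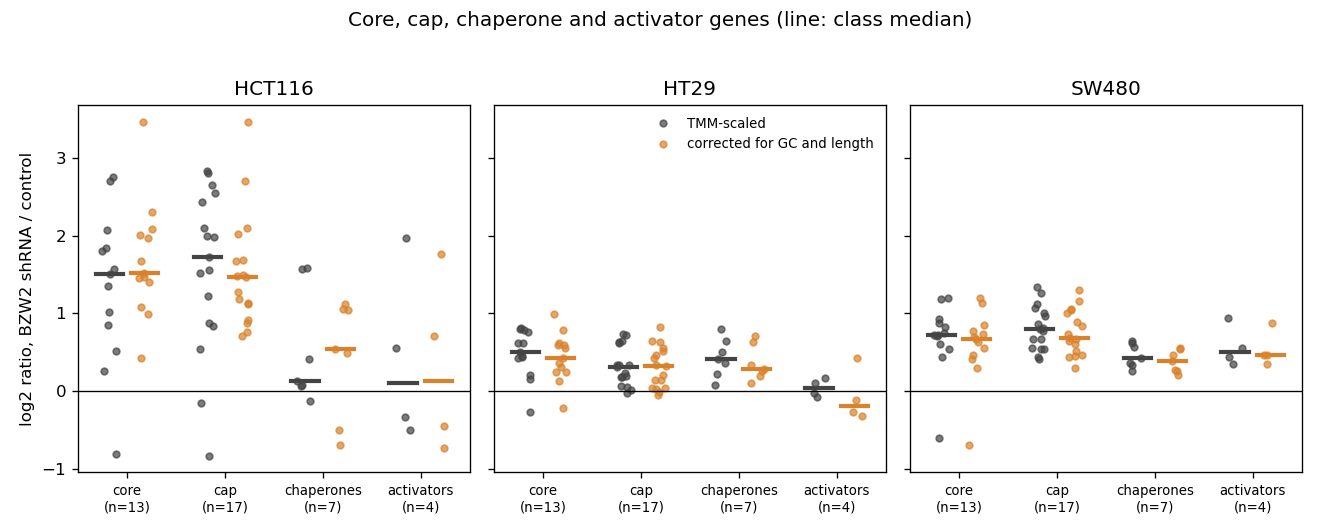
Log2 ratio of BZW2 shRNA to control library for the core, cap, chaperone and activator genes of each line, with TMM scaling (grey) and after correction for transcript GC content and length (orange); points are genes and lines are class medians. With TMM scaling the core and cap medians are 1.5 and 1.72 in HCT116, 0.50 and 0.31 in HT29, and 0.72 and 0.80 in SW480, and the chaperone median of HCT116 lies near 0 before and at 0.54 after correction. Corrected HCT116 medians are 0.0001 for the 4 chaperones of the alpha ring and 1.06 for the 3 of the ATPase ring.

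Because the HCT116 and HT29 ratios followed GC content over all genes, each ratio was also corrected for the GC content and length of the principal transcript. The 43 genes had a median GC content of 48.7%, beside 48.4% over all genes tested, and a median length of 1580 bases, beside 3104. Among the 43 genes, ratio and GC content had a Spearman correlation of 0.52 for HCT116, 0.15 for HT29 and 0.07 for SW480. With corrected ratios the same correlations were −0.19, −0.41 and 0.10. For these genes the relation to GC content in HT29 thus changed sign and was stronger after the correction than before it. Of the 6 genes below their control in HCT116, PSMC6, PSMD12, PSMA2 and PSME4 had a GC content of 36.8% to 41.5%, and PSMG2 and PSME1 of 52.2%. PSMD3, with the highest HCT116 ratio, had 58.6%. Low GC content did not go with a lower ratio in every gene: PSMA5 (37.2%) and PSMC2 (38.5%) were 3.59-fold and 4.32-fold higher in HCT116. After correction the median log2 ratio of the 43 genes stood at 1.28, 0.31 and 0.60 for HCT116, HT29 and SW480. Above their control were then 39 of 43 genes in HCT116 (50% of all genes), 36 in HT29 (51.7%) and 41 in SW480 (51.1%). At least 1.5-fold higher were 36 of 43 genes in HCT116 (27.8% of all genes), 10 in HT29 (12.2%) and 22 in SW480 (15.2%). At least 1.5-fold lower were 2 of 43 genes in HCT116, 0 in HT29 and 1 in SW480. Over all genes this held for 3336 of 11363, 1298 of 10104 and 1869 of 11155. The 2 in HCT116 were PSMG2, whose log2 ratio went from −0.13 to −0.69, and PSME1, from −0.34 to −0.72. Higher in all 3 lines were 32 of 43, where 23.8% of all genes were, and 28 of these were also among the 32 before correction. PSMA2, PSMC6, PSMD12 and PSME4 were higher in all 3 lines only with the correction, and PSMD6, PSMD8, PSMG4 and PSME3 only without it. PSME2 also turned, from a log2 ratio of 0.55 to −0.45 in HCT116. The corrected core minus cap difference in HCT116 was 0.06, opposite in sign to the uncorrected one, and the part of GC content in the order of the classes was not tested.

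**Figure D4:**
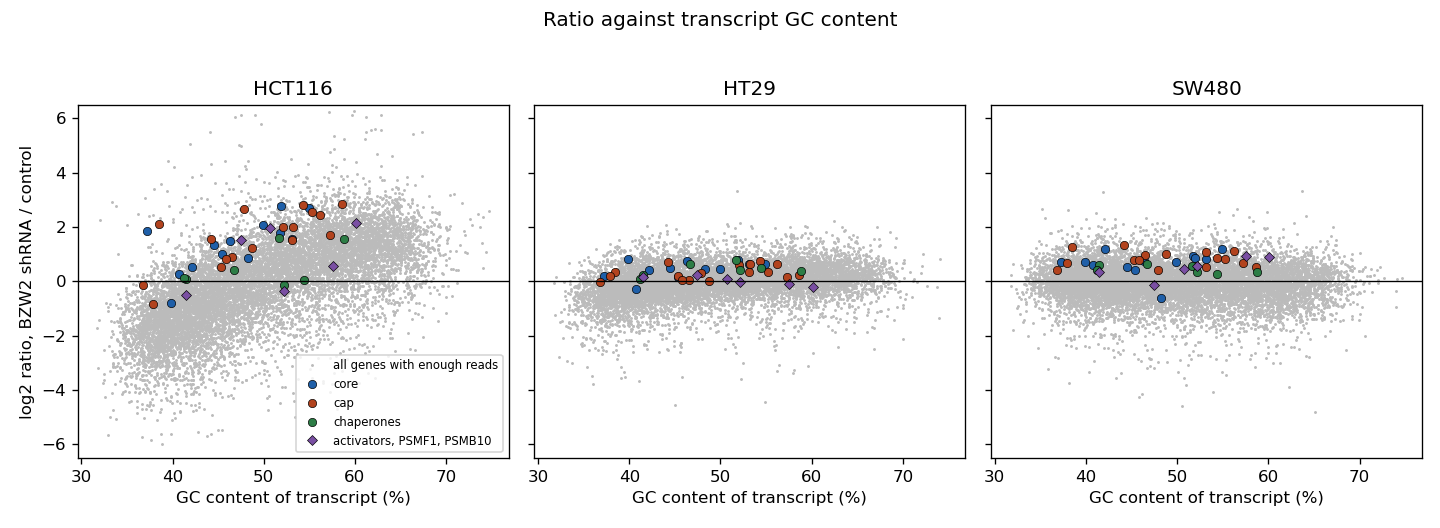
Log2 ratio of BZW2 shRNA to control library (y axis) against GC content of the transcript in percent (x axis) for all genes with enough reads (small grey points) and the 43 proteasome genes (coloured by class) in each line. The grey cloud of HCT116 rises with GC content (Spearman 0.68), that of HT29 less (0.33) and that of SW480 hardly (−0.06), and most proteasome genes lie above 0 and above genes of the same GC content.

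The ratios of single genes were only loosely shared between lines. Over the 43 genes the Spearman correlation of log2 ratios was 0.32 between HCT116 and HT29, 0.34 between HCT116 and SW480, and 0.20 between HT29 and SW480. Over all 10875 genes the same values were 0.43, 0.26 and 0.37. The genes of a line share its pair of libraries, so these are descriptions. The largest of a gene's 3 ratios was in HCT116 for 28 of the 43 genes, in SW480 for 11 and in HT29 for 4. Over all 10875 genes it was in HCT116 for 4615, in SW480 for 3490 and in HT29 for 2770. The 43 genes lie on 17 chromosomes, with 7 on chromosome 14 and 6 on chromosome 17, and 14 of them share exon positions with another listed gene.

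The promoters are shown because genes spread over many chromosomes were higher together. Windows from 250 bases before to 50 after the start, taken from RefSeq (GRCh38.p14), were matched for 37 of the 43 genes. Those of PSMA7, PSMB1, PSMB6, PSMB7, PSMD4 and PSMG3 were not used here. The windows below are those of PSMD1 (chr2:231056617-231056916, plus strand) and PSMC3 (chr11:47426390-47426689, minus strand), which had the smallest p-values, and of the proteolytic subunit PSMB5 (chr14:23034851-23035150, minus strand). Each is printed 5′ to 3′ on the strand of the gene, with matches to the motifs below in capitals.
PSMD1: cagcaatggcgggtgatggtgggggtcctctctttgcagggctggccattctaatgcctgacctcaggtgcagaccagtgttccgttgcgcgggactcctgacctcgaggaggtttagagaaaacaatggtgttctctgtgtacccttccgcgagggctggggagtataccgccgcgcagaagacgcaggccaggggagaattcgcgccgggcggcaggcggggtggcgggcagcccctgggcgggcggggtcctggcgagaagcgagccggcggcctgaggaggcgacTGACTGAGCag
PSMC3: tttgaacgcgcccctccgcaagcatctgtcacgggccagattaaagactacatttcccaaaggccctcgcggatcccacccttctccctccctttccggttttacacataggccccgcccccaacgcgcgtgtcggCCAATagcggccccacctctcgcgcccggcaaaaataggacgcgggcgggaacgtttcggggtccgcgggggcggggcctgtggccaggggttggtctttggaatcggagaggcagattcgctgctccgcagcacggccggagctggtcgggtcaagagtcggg
PSMB5: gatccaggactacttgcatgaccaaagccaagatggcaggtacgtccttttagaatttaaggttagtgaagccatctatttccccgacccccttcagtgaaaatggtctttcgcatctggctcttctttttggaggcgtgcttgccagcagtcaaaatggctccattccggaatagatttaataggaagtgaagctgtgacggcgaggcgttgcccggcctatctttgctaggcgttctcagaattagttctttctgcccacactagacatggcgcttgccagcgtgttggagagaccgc

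The motifs searched on both strands were TGACNNNGC, the core of the antioxidant response element that NFE2L1 and related factors bind, CCAAT, bound by NF-Y, the core motif of nuclear respiratory factor, and CACGTG, the E-box. No matches of different motifs overlapped in these windows. PSMD1 held TGACNNNGC downstream of its start, PSMC3 held CCAAT, and PSMB5 held none of the 4. Of the 37 windows, 11 (29.7%) held TGACNNNGC, beside 13.6% of all 27305 RefSeq windows and 15.5% of the 8695 windows of genes listed in all 3 lines. These 11 were 4 of 16 cap windows, 0 of 9 core windows, and the windows of PSMD5, PSMD9, PSMG1, PSMG2, PSME1, PSME2 and PSME4. CCAAT was in 15 (40.5%, beside 35.7% and 37.3%), the nuclear respiratory factor motif in 5 (13.5%, beside 6.29% and 12.9%) and CACGTG in 2 (5.41%, beside 7.43% and 10.5%).

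The TGACNNNGC matches in the other cap windows and in PSMD9, the chaperone with the highest ratio in HCT116 and HT29, are given with up to 12 bases on each side, 5′ to 3′ in the direction of the motif and with the match in capitals. In PSMC4 (chr19:39971180-39971212) the motif runs on the strand opposite to the gene, as in the second PSMD3 site (chr17:39980828-39980856) and the second PSMD9 site (chr12:121888629-121888661). In PSMD12 (chr17:67366722-67366754), the first PSMD3 site (chr17:39980758-39980790) and the first PSMD9 site (chr12:121888676-121888708) it runs with the gene.
PSMC4: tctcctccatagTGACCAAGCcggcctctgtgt
PSMD12: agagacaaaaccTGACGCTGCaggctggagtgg
PSMD3, first site: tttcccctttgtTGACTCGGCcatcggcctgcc
PSMD3, second site: ccgcacgaTGACGGAGCagctgcaaaccc
PSMD9, first site: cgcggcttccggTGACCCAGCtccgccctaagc
PSMD9, second site: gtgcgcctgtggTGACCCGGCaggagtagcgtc

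Median ratios were lower for the genes with the motif, of which 7 of 11 are chaperones or activators. In HCT116 the median log2 ratio was 0.42 for the 11 genes with TGACNNNGC and 1.52 for the 26 without it. In HT29 the medians were 0.23 and 0.27, and in SW480 0.57 and 0.74. PSMD12 and PSMD3, which both hold the motif, had the lowest and the highest log2 ratio of the 43 genes in HCT116 (−0.83 and 2.83), and PSMD1, which also holds it, had the highest in SW480 (1.34). A match is a description of the letters in these windows.

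Other genes of the ubiquitin system were followed as a list of 33, of which 32 were analysed. Before correction for GC content and length they did not share the direction of the subunit genes: 19 estimates were positive and 13 negative. Their median was 0.14, and 51.1% of all genes were positive. None passed the limma test after adjustment, and 4 were higher and 1 lower at an unadjusted p under 0.05 (6.59% and 7.04% of all genes). In all 3 lines 9 of 32 were higher and 5 lower, beside 22.3% and 21.1% of all genes. After correction for GC content and length, 13 of 32 were higher in all 3 lines (23.8% of all genes). Lower in all 3 were then 7 of 32, beside 2309 of 10875 genes. In HCT116 alone, 19 of 32 were higher before correction (49.6% of all genes) and 23 after it (50%). UFD1 and VCP, partners in the unfoldase that hands ubiquitinated proteins to the proteasome, were higher in each line. UFD1 was at 51.5 and 159 CPM in HCT116, 78.5 and 134 in HT29, and 47.6 and 96.1 in SW480, ratios of 3.09, 1.70 and 2.02 (limma estimate 1.17 ± 0.37, adjusted p = 0.305). VCP had ratios of 3.61, 1.56 and 1.38 (1.02 ± 0.40, limma adjusted p = 0.347).

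Companion proteins that bind the particle directly were mixed. POMP, the chaperone that completes the core, had ratios of 2.0 (1.70 to 2.34), 1.12 (1.06 to 1.18) and 2.08 (1.85 to 2.34). ADRM1, a ubiquitin receptor of the cap, was at 74.7 CPM in the HCT116 control and 595 in the knockdown, 217 and 219 in HT29, and 117 and 202 in SW480. It was thus 7.97-fold and 1.72-fold higher in HCT116 and SW480, and at 1.01 (0.952 to 1.08) in HT29. SEM1, a small lid subunit, had ratios of 0.846, 1.13 and 1.34. UCHL5, a deubiquitinase held by ADRM1, was lower in HCT116 and HT29, at 0.205 (0.144 to 0.285) and 0.669 (0.590 to 0.757), and at 0.952 (0.839 to 1.08) in SW480. Corrected for GC content and length, its log2 ratios in HCT116 and HT29 were −0.19 and −0.08 in place of −2.26 and −0.58. The same correction moved the HCT116 log2 ratio of SEM1 from −0.24 to 1.79, that of POMP from 0.99 to 3.16 and that of ADRM1 from 2.99 to 1.56, and the HT29 value of ADRM1 to −0.27. USP14, the other deubiquitinase of the cap, had ratios of 0.452, 0.859 and 1.35, and its limma estimate of −0.27 ± 0.41 (adjusted p = 0.743) became positive (0.14) without HCT116 and after the GC correction (0.38).

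The remaining genes named are a transcription factor, an import factor and a stimulator. NFE2L1, the transcription factor that raises proteasome gene expression when activity is short, had 207 and 214 CPM in HCT116, 309 and 151 in HT29, and 205 and 168 in SW480. Its ratio was 1.03 (0.924 to 1.16) in HCT116 and below 1 in HT29 (0.487, 0.456 to 0.520) and SW480 (0.821, 0.753 to 0.896), and its corrected log2 ratio in HCT116 was −0.71. AKIRIN2, needed for import of proteasomes into the nucleus, had ratios of 0.412 (0.229 to 0.696), 0.839 (0.655 to 1.07) and 0.592 (0.444 to 0.787). ZFAND5, a stimulator of the proteasome, was lower in all 3 lines, at 0.319, 0.648 and 0.644 of its control (limma estimate −0.93 ± 0.38, adjusted p = 0.351).

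The 4 genes that only share the name did not go in one direction. PSMC3IP, a recombination factor with 8 to 45 reads per library, had 2.67 (1.37 to 5.59) in SW480 and intervals that included 1 in HCT116 and HT29. PSME3IP1, a protein that binds PSME3, had ratios of 0.583 (0.413 to 0.807), 1.02 (0.898 to 1.17) and 1.29 (1.06 to 1.58). PSMD14-DT, a divergent transcript whose exons overlap PSMD14, had 1 read in the HCT116 knockdown against 21 in its control and 3 against 27 in HT29, ratios of 0.153 (0.00371 to 0.954) and 0.115 (0.0224 to 0.375), and 0.885 (0.453 to 1.74) in SW480. PSMG3-AS1, antisense to PSMG3 and with 14 to 23 reads per library, had 3.91 (1.81 to 8.57) in HCT116 and 0.993 (0.528 to 1.86) in HT29. It was not listed in SW480. As strandedness is not given, reads of PSMG3-AS1 and PSMG3 cannot be told apart where the genes overlap.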

How the data were processed

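Deposited values were a normalised signal per gene and library, which the authors made by dividing read counts by size factors set within each line, as the values show. The submitters' processing notes name bcl2fastq 2.17, STAR 2.5.2b, DESeq and GRCh38. For the gene counter, the annotation release and strandedness: not given in the sources used here. Whole reads were recovered for 100% of values within 0.1 read. Of 13040 identifiers, 19 that were repeated were left out.

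Across lines, limma 3.58.1 (R 4.3.3) was fitted on log2(value + 1) for 10875 genes listed in all 3 lines (minimum value 1, reached in no fewer than 3 libraries), with cell line as block and Benjamini-Hochberg adjustment over all genes; 2 residual degrees of freedom were available. Libraries that share a replicate number come from the same line. Deviations of the HT29 pair had a correlation of 0.75, and the highest correlation with another line was −0.66. For SW480 the same values were 0.45 and 0.38, and for HCT116 they were 0.28 and 0.23. By this measure the pairing was clear for HT29 only, and the margin was small for the other lines. Within a line, ratios were taken from TMM-scaled reads (edgeR 4.0.16, prior count 2 for log2 ratios), with exact counting intervals. Ratios of all genes of a line were summarised over those with at least 5 CPM in the higher library. The ratios of the genes named were not filtered by this level. DESeq2 1.42.0 and edgeR were run on recovered reads as alternatives. GC content and length came from the principal transcript in GENCODE 29. A limma fit with the same block was tried on simulated reads with known fold changes. The within-line ratios, counting intervals, GC correction and motif search were not tested in this way.

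Members and gene lists were chosen with earlier results of these data known. Named with values were, in each role, the genes of smallest p and same sign in all lines, the highest and lowest ratio of each line, every gene at least 1.5-fold apart in at least 2 lines, and PSMB5, PSMB6 and PSMB7; others are named to account for all 43. Promoters shown were those of the genes with the smallest p and a catalytic subunit with a window; the window of PSME3IP1 is not printed. PSMA8, PSMB3 and PSMB11 were not analysed here.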

Additional observations from a re-analysis of the deposited data

Results flagged for a closer look

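In 7 genes, 1 line ran opposite to another, with both counting intervals away from a ratio of 1. The share of all genes that met this rule was not counted, so 7 cannot be called many or few. Such intervals are common: in HCT116 they lay above 1 for 39.2% of all genes and below 1 for 39.8%. Each line has 1 library per treatment, so none of these differences was tested. The log2 ratio of PSMB1 was −0.60 in SW480, opposite to HCT116 and HT29. That of PSMD12 was −0.83 in HCT116, opposite to HT29 and SW480, and 0.76 after correction for GC content and length. PSMA2 was at −0.81 in HCT116, opposite to HT29 and SW480, and at 0.43 after correction. PSME4 was at −0.50 in HCT116, opposite to HT29 and SW480, and at 0.71 after correction. These 3 thus had the same sign in all 3 lines once corrected, while the other 4 kept their sign. PSME1 was at −0.34 in HCT116, opposite to SW480. PSMA3 was at −0.27 in HT29, opposite to SW480. PSME3IP1 was at −0.77 in HCT116, opposite to SW480.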

How the results depend on the processing

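The count of proteasome genes higher at an unadjusted p under 0.05 was 17 with the replicate block, 0 without it, and 28 after correction for GC content and length (10.7% of all genes). Leaving out 1 line gave 12 to 17 such genes, 39 to 42 positive estimates and medians of 0.49 to 1.07. Of these fits, only the one without HCT116 has a share of all genes beside it (9.67% at that p, 51.7% positive). No such share was counted for the other fits without 1 line, for the fit without the block or for scaling by library totals. After adjustment, 0 of the 43 passed in every setting run but 1. In that one, chosen after seeing the data (GC correction without HCT116), 3 passed limma: PSMD1 (1.10, adjusted p = 0.0113), PSMC2 (0.93, 0.0241) and PSMA4 (0.94, 0.0342), beside 3.59% of all genes. The estimate of PSMB1 turned to −0.0485 without HCT116 and −0.19 with the correction as well. That of USP14 turned to 0.14 without HCT116, 0.38 corrected, 0.33 corrected without HCT116 and 0.33 corrected by the longest transcript. In HCT116, with library totals as scaling, the medians were 1.18 for core, 1.40 for cap and −0.19 for chaperones, and 4 genes were at least 1.5-fold lower. Corrected, the HCT116 values were 1.46 for cap, 0.54 for chaperones, 0.0611 for core minus cap and 0.99 for core minus chaperones. By the longest transcript (also chosen after seeing the data) core was 1.94 and core minus cap 0.22 in HCT116, and core minus chaperones 0.30 in HT29. At a 2-fold threshold, 26 genes in HCT116, 0 in HT29 and 7 in SW480 were higher. The 1 gene at least 1.5-fold lower in SW480 became 0 with the deposited factors and with library totals. The causes were not tested. With 1 library per line and treatment, the depth limits what a line can show to counting error, and PSMA2 in HCT116 and PSMB10 in SW480 rest on as few as 23 reads.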

Other observations

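The processed pseudogene PSMD10P1, left out of the proteasome genes, was listed in HT29 and SW480. It had 59 reads in the HT29 control and 11 in the knockdown, and 22 and 1 in SW480, ratios of 0.194 (95% counting interval 0.0917 to 0.372) and 0.0364 (0.000882 to 0.225). Its parent PSMD10 was at 1.16 and 1.54 in the same lines. Reads of the pseudogene and its parent can be assigned to either where their sequences match, so both values are uncertain. Of the other transcription factors of the list, NFE2L2, the oxidative stress regulator that binds the same motif as NFE2L1, was below its control in all 3 lines, at 0.459 (0.368 to 0.567) in HCT116, 0.593 (0.550 to 0.639) in HT29 and 0.861 (0.777 to 0.955) in SW480. NFE2L2 was named after its values were seen, and it did not pass the limma test after adjustment (−0.66 ± 0.37, log2, adjusted p = 0.415).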
